A study of Mus musculus with 4 samples.

Results

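The genes described here encode the pocket proteins and the transcription regulators that act with them: Rb1, Rbl1 and Rbl2 (the pocket proteins), Tfdp1 and Tfdp2 (the DP partners of E2F), Lin9 and Lin54 (subunits of the MuvB core), Mybl2 (B-MYB) and Foxm1. They are listed by name, with no threshold on their values, and all 9 were found among the 31824 gene names on the array. Their 15 probes filled 24 spots on each array, because Rb1 was spotted 10 times. Each gene was represented by its brighter probe, and 6 of the 9 had a second probe whose values are given beside it. RNA came from mouse embryonic fibroblasts (MEFs), connective tissue cells grown from embryos, that were p53+/+ (wild-type: WT) or p53-/-. Each genotype was grown without (called untreated below) or with doxorubicin, a drug that traps topoisomerase II on DNA and breaks it. The dose and time for the arrays, and the age of the embryos, are not given in the sources used here, and nor are the number of embryos or cultures behind each RNA. There was 1 Agilent one-color array per condition, 4 in all on 1 slide, so no difference below has a replicate check, none was tested, and culture, place on the slide and condition cannot be told apart.

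Pocket proteins bind E2F and DP dimers and keep their target genes silent until cyclin-dependent kinases phosphorylate them. In resting or arrested cells, p130 (Rbl2) or p107 (Rbl1) joins E2F4, a DP protein and the MuvB core of LIN9, LIN37, LIN52, LIN54 and RBBP4 to form DREAM, the complex that represses genes of S phase and mitosis. In cycling cells the same MuvB core leaves the pocket protein, binds B-MYB and later FOXM1, and then activates the genes of mitosis. p53 is known to feed into this switch through p21, the inhibitor encoded by Cdkn1a.

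The RefSeq promoter windows (GRCm38.p6, 250 bases before to 50 after a transcript start) of the 2 pocket protein genes that moved in opposite directions, and of Mybl2, are shown because the comparison of these genes is the center of what follows. Windows were given for 6 of the 9 genes, 9 windows in all, and not for Rb1, Lin9 or Foxm1. They were searched on both strands for the E2F motifs TTTCGCGC, TTTGGCGC, TTTCCCGC and TTTGCCGC, for the cell cycle homology region (CHR, the element that LIN54 binds) written as TTTGAA or TTCGAA, and for CCAAT, the box of NF-Y. Capitals mark E2F and CHR matches, in Rbl1 an E2F motif and in Rbl2 a CHR motif on the opposite strand.
Rbl1 promoter, chr2:157204485-157204784, minus strand: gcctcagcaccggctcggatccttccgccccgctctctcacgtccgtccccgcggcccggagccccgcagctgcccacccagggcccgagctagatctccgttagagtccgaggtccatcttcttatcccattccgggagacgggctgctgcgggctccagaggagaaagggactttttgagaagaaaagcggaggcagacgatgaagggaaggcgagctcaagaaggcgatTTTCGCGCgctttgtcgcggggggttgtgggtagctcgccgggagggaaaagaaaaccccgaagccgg
Rbl2 promoter, chr8:91069807-91070106, plus strand: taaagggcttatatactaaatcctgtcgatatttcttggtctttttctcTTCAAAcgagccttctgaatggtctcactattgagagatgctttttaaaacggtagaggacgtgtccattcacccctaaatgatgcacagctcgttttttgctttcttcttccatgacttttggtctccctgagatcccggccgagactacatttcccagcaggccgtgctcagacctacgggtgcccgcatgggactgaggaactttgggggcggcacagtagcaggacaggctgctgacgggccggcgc
Mybl2 promoter, chr2:163054385-163054684, plus strand: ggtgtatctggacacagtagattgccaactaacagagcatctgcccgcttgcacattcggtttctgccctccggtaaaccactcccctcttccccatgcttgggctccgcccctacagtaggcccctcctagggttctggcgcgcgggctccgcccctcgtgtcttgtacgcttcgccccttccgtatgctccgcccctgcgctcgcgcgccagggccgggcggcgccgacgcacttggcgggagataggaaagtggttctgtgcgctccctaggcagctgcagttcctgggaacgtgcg

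The Rbl1 match, TTTCGCGC, began 18 bases before the transcript start. Tfdp1 held the same letters on the opposite strand in both of its overlapping windows, so that 2 of the 6 genes had an E2F motif, against 2.26% of all 32851 windows of this length. The CHR letters were in the windows of 2 genes, Rbl2 and Lin54, where they occur in 19.2% of all windows. CCAAT was in 1 gene, Lin54, and in 37.4% of all windows. A gene counted when any of its windows held the letters, while the shares are per window, so the units differ. The Mybl2 window and both Tfdp2 windows held none of these letters, which says only that these spellings are not in these windows.

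Signals were set against the 75th percentile of their own array, and a level below is the log2 of that quotient. A ratio counted as measured where Feature Extraction, the scanner software, marked the probe as well above background on both arrays, which was so for all 9 genes in every comparison. The brighter probes had signals from 310 to 29645, above the brightest of 153 negative control spots on each array (77.5 to 250.1). For 253 probes with 10 spots the log2 signal had an SD of 0.08 between spots, or 0.12 (0.115) for a ratio of 2 arrays. That spread covers spots on 1 array and no cultures or labeling reactions. The Trp53 probe, which checks the genotypes, read 1228 and 3442 in WT MEFs and 442 and 543 in p53-/- MEFs (without, then with doxorubicin). Whether it lies in the deleted part was not analysed here. All 10 fibroblast markers were well above background on every array. Of 8 leukocyte, 5 epithelial and 4 endothelial markers, 5 to 7, 3 to 4 and 2 to 3 were too, but their summed signals were small (14.7 to 20.0, 5.34 to 17.9 and 2.33 to 4.21 times the 75th percentile, against 579 to 862 for the fibroblast list). The epithelial sum was higher with doxorubicin in both genotypes (5.71 and 9.98 in WT, 5.34 and 17.9 in p53-/- MEFs), and its part in the results was not tested.

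In WT MEFs, doxorubicin was followed by a split among the 9 genes. Rb1 and Rbl2 rose at least 2-fold, Rbl1, Lin9, Lin54, Mybl2 and Foxm1 fell at least 2-fold, and Tfdp1 and Tfdp2 stayed within 2-fold. Of all 17546 measured genes, 11.0% rose and 10.4% fell as much (21.5% either way). Against this background, 2 of 9 is a small count for a rise, and 5 of 9 lies above it for a fall. With the mean of all probes of a gene, 7 were left measured and 2 of them fell. Rbl1 and Foxm1 dropped out there, because their second probes were not well above background in treated WT MEFs. The median log2 ratio of the 9 was −1.20 beside 0.01 for all genes. It was −0.36 with the mean of probes, over the 7 genes left, so the 2 medians cover different genes. In p53-/- MEFs, 1 of the 9 rose (Tfdp2, on 1 of its probes) and 0 fell, where 9.24% of 16978 genes rose and 6.89% fell (16.1% either way), and the median of the 9 was 0.57 beside 0.00 for all genes (0.000795). Scaling to the array median moved the median of all genes with doxorubicin to −0.27 in WT and −0.30 in p53-/- MEFs, and 0 of the 9 then rose in p53-/- MEFs. The plot of levels by array shows these patterns for each probe.

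**Figure D1:**
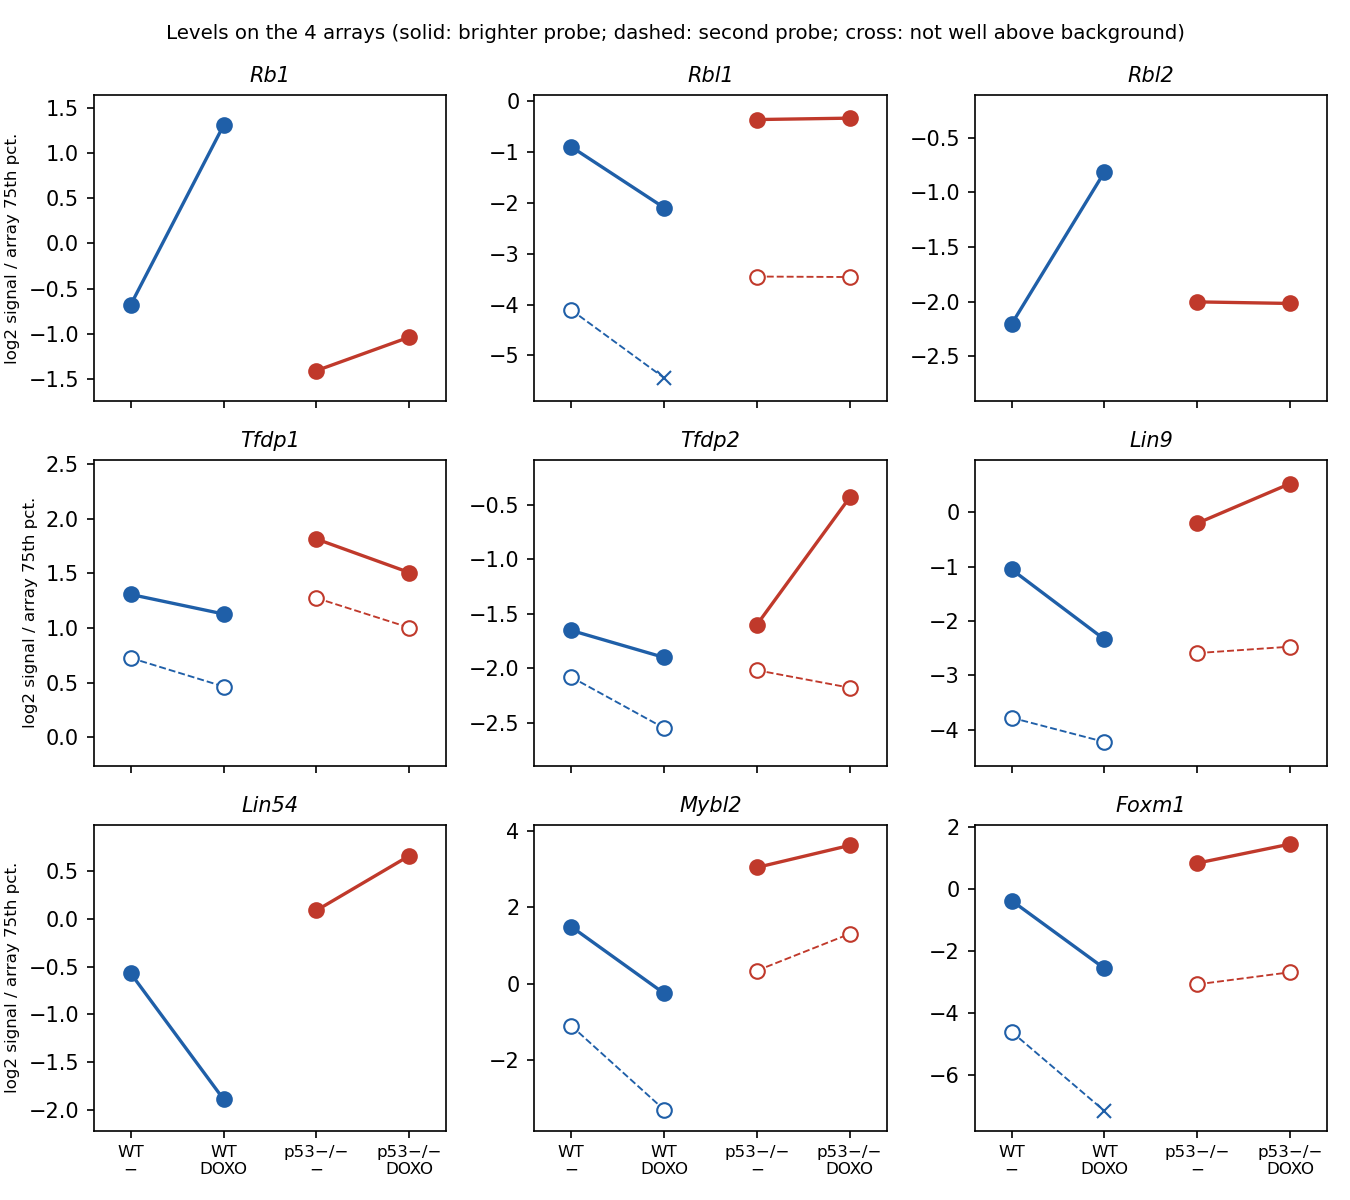
Level of each gene on the 4 arrays, as log2 of the signal over the 75th percentile of its array (vertical axes differ between genes); 1 array per point, blue WT and red p53-/- MEFs, without (−) and with doxorubicin (DOXO), solid lines the brighter probe, dashed lines the second probe and crosses values not well above background. Rb1 and Rbl2 climb in WT MEFs, by 1.99 and 1.39, while Foxm1 and Mybl2 drop by 2.19 and 1.74 there and lie highest on the p53-/- array with doxorubicin.

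Among the pocket proteins, Rb1 encodes the retinoblastoma protein, the main restraint on E2F1 to E2F3. Its probe lies on chromosome 14 of mm9 from 73595408 to 73595467, on the minus strand. The signal was 1295 in untreated and 4503 in treated WT MEFs, and 708 in untreated and 1179 in treated p53-/- MEFs. The treated WT array thus stood apart from the other 3 by far. Across the 10 spots, the signals ran from 1136 over a median of 1307 to 1364 in untreated WT, and from 4264 over 4452 to 5043 in treated WT MEFs. In p53-/- MEFs they ran from 671 over 697 to 783 without and from 1101 over 1152 to 1358 with doxorubicin. The spots of the 2 arrays of a genotype did not overlap, though repeat spots share 1 RNA and are no replicates of a condition. On the scaled log2 scale the level was −0.68 ± 0.07 (SD of 10 spots) and 1.31 ± 0.07 in WT, and −1.41 ± 0.07 and −1.04 ± 0.09 in p53-/- MEFs. The log2 ratio with doxorubicin was 1.99 (3.97-fold) in WT MEFs, and 554 of 17546 genes had a higher one. In p53-/- MEFs it was 0.37, and 0.07 when arrays were scaled to their median instead.

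**Figure D2:**
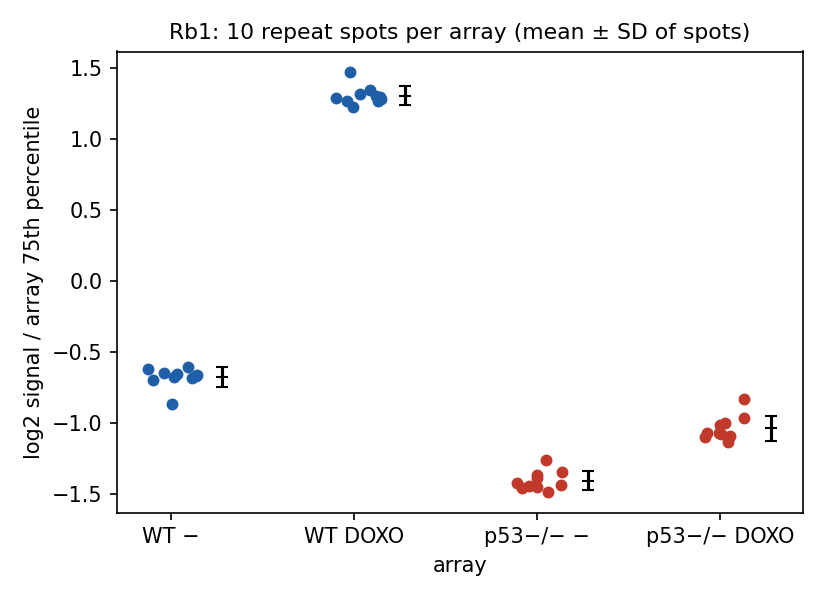
The 10 repeat spots of the Rb1 probe on each array (points, spread sideways for sight), as log2 of the signal over the array's 75th percentile, with the mean and SD of the spots beside them. The spots of treated WT MEFs (1.31 ± 0.07) lie above all spots of the other arrays, and the spots show the precision within an array only.

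Rbl2 encodes p130, the pocket protein that predominates in resting cells. Its only probe (chromosome 8 of mm9, 93647120 to 93647179, plus strand) read 450 in untreated and 1036 in treated WT MEFs, and 470 and 599 in p53-/- MEFs. Only the treated WT array was high. The log2 ratio was 1.39 (2.62-fold) in WT and −0.01 in p53-/- MEFs, and the 2 p53-/- levels differed by less than the spot spread (0.01).

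Rbl1 encodes p107, which is itself an E2F target and is known to be abundant in cycling cells. The brighter probe (transcript variant 1, chromosome 2 of mm9, 156972143 to 156972202, minus strand) read 1112 and 426 in WT MEFs without and with doxorubicin, and 1462 and 1918 in p53-/- MEFs. The treated WT array was the lowest of the 4. The log2 ratio was −1.20 in WT MEFs and 0.03 in p53-/- MEFs, where it turned to −0.27 with scaling to the array median. The probe for transcript variant 2 was dim, at 120 and 41.9 in WT and 172 and 220 in p53-/- MEFs, and was not well above background in treated WT MEFs. It gave a value at least 2.38-fold lower there than in untreated WT MEFs, or 1.36-fold when the brightest negative control is taken as the limit. Both probes thus moved the same way in WT MEFs.

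Within an array, the quotient of 2 genes does not depend on the factor by which the array is scaled. It does depend on background correction and would shift with quantile normalization. Rbl2 over Rbl1 was 6.01-fold higher in treated than in untreated WT MEFs and 0.971-fold in p53-/- MEFs. Rb1 over Rbl1 was 9.08-fold higher in WT and 1.27-fold in p53-/- MEFs. These pairs were also chosen after the values were seen, and they set genes that rose in WT MEFs over 1 that fell. An unequal change there was thus built into the choice, and the quotients give only its size. In bulk RNA, fewer cells of a type and less RNA per cell cannot be told apart, here and for every gene below.

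The genes of the DP proteins, which pair with E2F to bind DNA, changed least of the 9 in WT MEFs on the brighter probes. Tfdp1 (DP1) has 2 probes on chromosome 8 of mm9. The brighter (13377791 to 13377850) read 5129 and 3973 in WT and 6611 and 6882 in p53-/- MEFs, and the log2 ratio with doxorubicin was −0.18 and −0.31. The second probe gave −0.26 and −0.27, close to the first. On the brighter probes, the Tfdp1 levels spanned 1.61-fold over the 4 arrays, the narrowest range among the 9 genes.

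Tfdp2 (DP2) read 660 and 488 in WT and 620 and 1790 in p53-/- MEFs with its brighter probe (chromosome 9 of mm9, 96219269 to 96219328), so that the treated p53-/- array was high. The log2 ratio was −0.25 in WT and 1.16 (2.24-fold) in p53-/- MEFs. The second probe, 96223955 to 96224014 on the same strand and for the same RefSeq transcript, read 491, 312, 465 and 536 in the same order and gave −0.47 and −0.16. The 2 probes therefore disagree on the rise in p53-/- MEFs. With the mean of both probes its log2 ratio was 0.50, and with scaling to the array median 0.87, both under 2-fold.

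Lin9 and Lin54 encode MuvB subunits, LIN9 a scaffold that also carries B-MYB and LIN54 the part that binds DNA. The brighter Lin9 probe (transcript variant 1, chromosome 1 of mm9, 182620528 to 182620587) read 999 and 360 in WT and 1632 and 3484 in p53-/- MEFs. Treated WT MEFs were lowest and treated p53-/- MEFs highest. The log2 ratio was −1.28 in WT and 0.73 in p53-/- MEFs. The probe for transcript variant 2 (182611541 to 182611600) read 151 and 97.4 in WT and 312 and 436 in p53-/- MEFs, with log2 ratios of −0.44 and 0.12, the same signs at smaller size. Averaged over its probes, Lin9 had −0.86 in WT MEFs, which is under 2-fold.

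The only Lin54 probe (chromosome 5 of mm9, 100871155 to 100871214, minus strand) read 1396 and 491 in WT and 2001 and 3831 in p53-/- MEFs, in the same order of arrays as Lin9. The log2 ratio was −1.32 (2.49-fold lower) in WT and 0.57 in p53-/- MEFs.

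Mybl2 encodes B-MYB, the E2F target that carries MuvB to mitotic promoters. Its brighter probe (chromosome 2 of mm9, 162909345 to 162909404) read 5823 and 1524 in WT and 15436 and 29645 in p53-/- MEFs. The treated WT array was the lowest, and both p53-/- arrays lay above both WT arrays. The log2 ratio was −1.74 (3.35-fold lower) in WT and 0.58 in p53-/- MEFs. The second probe (162910364 to 162910423) read 965 and 185 in WT and 2377 and 5959 in p53-/- MEFs and gave −2.20 and 0.96. The sign was the same on both probes, and the size was larger on the second.

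Foxm1 encodes the forkhead factor that drives late mitotic genes. Its brighter probe (chromosome 6 of mm9, 128324783 to 128324842) read 1613 and 310 in WT and 3389 and 6678 in p53-/- MEFs, again with treated WT MEFs lowest and treated p53-/- MEFs highest. The log2 ratio of −2.19 (4.56-fold lower) in WT MEFs was the lowest of the 9, and 322 of 17546 genes were lower still. In p53-/- MEFs it was 0.61. The second probe (128323866 to 128323925) was dim, at 85.7, 12.8, 225 and 379 in the same order, and was not well above background in treated WT MEFs. It was at least 6.42-fold higher in treated p53-/- than in treated WT MEFs, or 3.68-fold with the brightest negative control as the limit. Its fall in WT MEFs was at least 1.69-fold, a bound that is lost against that control.

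The same arrays were set against each other by genotype, and these comparisons share arrays with those above. Without doxorubicin, 2 of the 9 genes were at least 2-fold higher in p53-/- than in WT MEFs and 0 were 2-fold lower, where 2.15% and 2.62% of 17317 genes were (4.77% either way). The 2 were Mybl2, at a log2 ratio of 1.55 (2.92-fold), and Foxm1, at 1.21 (2.32-fold). Only 51 genes were higher than Mybl2 by this measure and 172 than Foxm1. Lin9 followed at 0.85 (1.19 on its second probe), Lin54 at 0.66, Rbl1 at 0.54 and Tfdp1 at 0.51. With the mean of all probes Lin9 had 1.02, and 3 of the 9 were then at least 2-fold higher. Rbl2 and Tfdp2 had 0.20 and 0.05, and Rb1 the only value below 0, −0.73 (1.66-fold lower). The median of the 9 was 0.54 beside −0.00278 for all genes.

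With doxorubicin, 6 of the 9 were at least 2-fold higher in p53-/- than in WT MEFs and 2 were 2-fold lower, where 11.9% and 10.3% of 17918 genes were (22.2% either way). With the mean of all probes, 3 of the 7 then measured were higher, and the median went from 1.76 to 0.92. Rbl1 and Foxm1 were left out of this setting, because their second probes were dim in treated WT MEFs. The 2 medians thus cover different genes. The distance was greatest for Foxm1, at a log2 ratio of 4.02 (16.2-fold), and Mybl2, at 3.87 (14.6-fold, and 4.60 on its second probe). Lin9 had 2.86 (1.75 on its second probe) and Lin54 2.55. Rbl1 had 1.76 (at least 3.73-fold, or 2.13-fold against the brightest negative control, on its second probe) and Tfdp2 1.46 (0.37 on its second probe). On the other side were Rb1 at −2.35 (5.08-fold lower) and Rbl2 at −1.20 (2.30-fold lower). Tfdp1, at 0.38, was within 2-fold. The plot of ratios sets the 4 comparisons side by side.

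**Figure D3:**
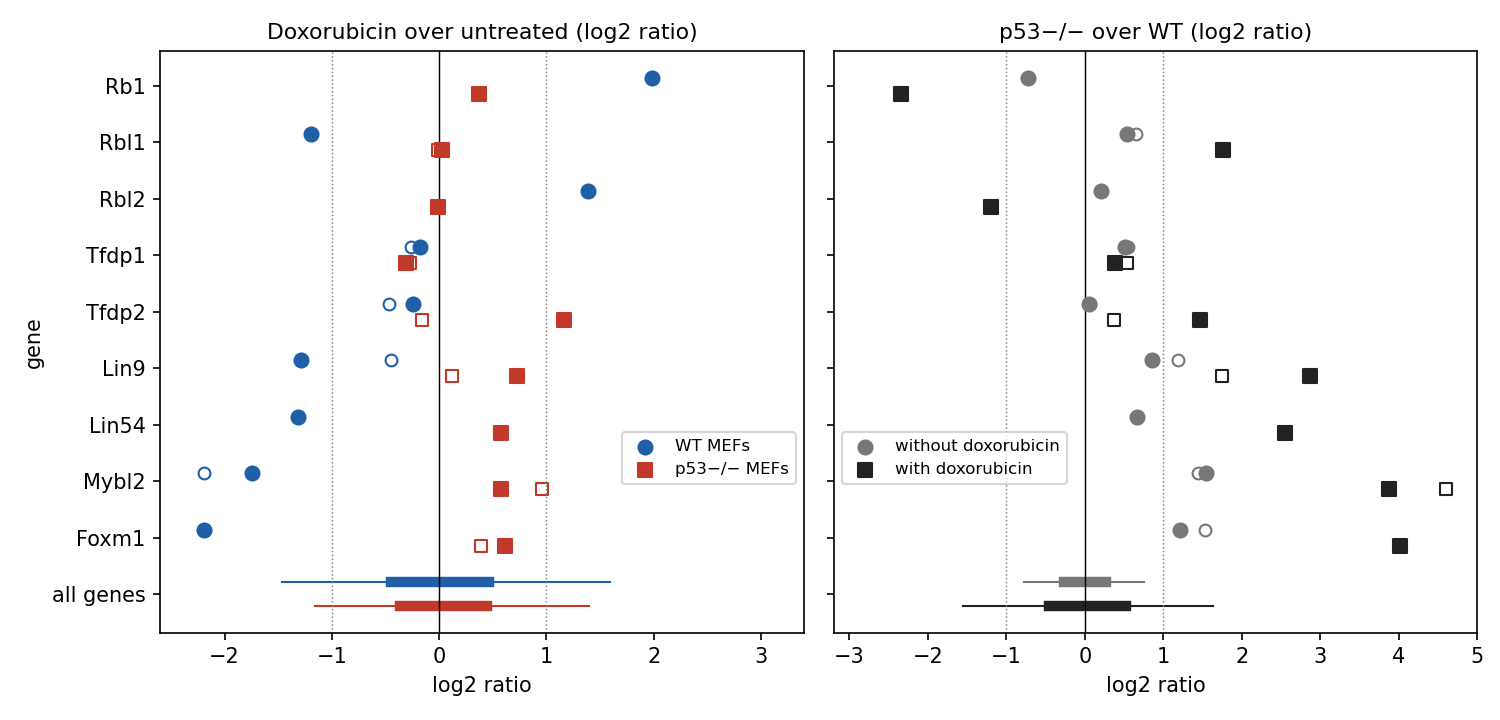
Log2 ratios of the 9 genes, doxorubicin over untreated in WT (blue circles) and p53-/- MEFs (red squares) on the left, and p53-/- over WT MEFs without (gray circles) and with doxorubicin (black squares) on the right; filled symbols are the brighter probe, open ones the second probe where measured, dotted lines 2-fold, and the bottom row the middle 50% (thick) and 90% (thin) of all measured genes. Foxm1 and Mybl2 lie farthest right in treated MEFs of the 2 genotypes (4.02 and 3.87), and Rb1 and Rbl2 lie on the left (−2.35 and −1.20).

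The difference of the doxorubicin log2 ratios (WT minus p53-/-) sums this up for each gene. It was −2.80 for Foxm1, −2.32 for Mybl2, −2.01 for Lin9, −1.89 for Lin54, −1.41 for Tfdp2 and −1.22 for Rbl1. It was 0.13 for Tfdp1, 1.41 for Rbl2 and 1.62 for Rb1. On second probes the difference was −0.31 for Tfdp2, −0.56 for Lin9 and −3.16 for Mybl2. With the mean of probes it was −0.86 for Tfdp2 and −1.29 for Lin9. On the brighter probes it was below 0 for 6 of the 9 and above 0 for 3. Of 16538 genes measured on all arrays, 49.1% and 50.9% were. Of the same genes, 9.86% had a difference of −1 or lower, as 6 of the 9 did on their brighter probes. A difference of 1 or higher was found in 8.38%, and in 2 of the 9. Without replicates these differences were not tested. The repeat spots give a difference an SD of 0.16, smaller than every value named here but that of Tfdp1. That SD covers neither cultures nor the disagreement between probes, which was larger for Tfdp2, Lin9 and Mybl2. In 5 of the 9 (Tfdp2, Lin9, Lin54, Mybl2 and Foxm1) the value was lower with doxorubicin in WT and higher in p53-/- MEFs, each by more than the spot spread of a ratio, as in 10.9% of all genes. Opposite directions of either kind were found in 21.7% of them.

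The remaining subunits of DREAM and MuvB (Lin37, Lin52, Rbbp4 and E2f4), E2f5 and the kinase Dyrk1a, which phosphorylates LIN52 to assemble DREAM, formed a list of 6 genes. All 6 were measured on all arrays, and 0 rose or fell 2-fold with doxorubicin in either genotype, with a median log2 ratio of 0.12 in WT and 0.20 in p53-/- MEFs. Lin37 had 0.87 in WT and 0.69 in p53-/- MEFs, and Lin52 had 0.11 and 0.26. Rbbp4, a histone-binding subunit found in several chromatin complexes, had −0.56 and 0.32. E2f4, the E2F of DREAM, had 0.67 and −0.34, E2f5 0.13 and 0.14, and Dyrk1a −0.04 and −0.27. The difference (WT minus p53-/-) reached 1 for E2f4 only (1.01). Between treated MEFs, Rbbp4 alone of the 6 was 2-fold apart (1.20, higher in p53-/-). Set against Lin37 on the same array, Lin9 had a log2 change of −2.16 in WT and 0.04 in p53-/- MEFs. Lin54 against Lin52 had −1.43 and 0.31. These pairs were chosen after the values were seen, and each sets a gene that fell in WT MEFs over a gene that did not. An unequal change there was thus built into the choice, and the values give only its size on the brighter probes.

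A list of 14 cyclins, kinases and inhibitors that act on pocket proteins was mixed. In WT MEFs, 2 of 13 measured rose and 5 fell (median −0.70), and in p53-/- MEFs 1 of 12 rose and 1 fell (median 0.10). Ccne1 (cyclin E1) and Ccna2 (cyclin A2), which activate CDK2, had the lowest differences between genotypes among the genes measured on all arrays. With doxorubicin Ccne1 had a log2 ratio of −2.77 in WT and 0.25 in p53-/- MEFs, and Ccna2 had −2.26 and 0.46. At the other end were Ccnd2 (cyclin D2), with −0.67 and −1.24, and Cdkn2b (p15), with 0.27 and 0.03. The others that passed 2-fold are named for completeness, after their values were seen. Cdk2, Cdkn1b (p27) and Cdkn2c (p18) fell in WT MEFs (−1.21, −1.58 and −1.19), and Ccnd1 (cyclin D1) rose there (1.02). Cdkn1a, the p21 gene, rose in both genotypes, by 2.08 in WT and 2.23 in p53-/- MEFs. Its level remained far lower in p53-/- MEFs, at −0.95 and 1.29 without and with doxorubicin against 3.79 and 5.87 in WT MEFs. Ccne2 (cyclin E2) had no ratio, because it was well above background only in treated WT MEFs. Its signals were 27.5 and 174 in WT and 20.8 and 94.8 in p53-/- MEFs, higher with doxorubicin, unlike Ccne1 in WT MEFs.

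Genes that DREAM holds down and that E2F or MYB-MuvB with FOXM1 activate had lower medians in WT MEFs than the regulators did. Of 15 G1/S genes, 9 of 14 measured fell in WT MEFs and 0 rose (median −2.35), and in p53-/- MEFs 3 of 15 rose and 1 fell (median 0.52). Mcm3 and Mcm5, subunits of the replicative helicase, had −3.45 and −3.49 in WT and 0.71 and 0.42 in p53-/- MEFs. Mcm7, another subunit, had 0.38 and 0.70. Named after their values were seen, Rrm2, a subunit of ribonucleotide reductase (1.05), and Cdc6, a licensing factor (1.07), rose in p53-/- MEFs, and Pola1, of the primase complex, fell (−1.45). Of 20 G2/M genes, 16 of 17 measured fell in WT MEFs and 0 rose (median −2.94), and 1 of 19 rose and 0 fell in p53-/- MEFs (median 0.41). Top2a, the mitotic topoisomerase II that doxorubicin targets, had −4.47 in WT and 0.40 in p53-/- MEFs, and the mitotic kinase Aurka −2.94 and 0.91. The gene that rose in p53-/- MEFs was Kif23, a kinesin of cytokinesis (1.13). Ccnf (cyclin F) was the 1 measured gene of this list that did not fall in WT MEFs, with 0.06 and −0.59. The phosphatase gene Cdc25c had −2.00 and −0.41, from a signal of 79.8 in treated WT MEFs that hardly passed the brightest negative control (77.5). Genes not well above background on an array were left out of its comparisons, among them in treated WT MEFs Cdc6 (G1/S), at 389 and 14.6, and Nek2 (G2/M), at 994 and 46.9 without and with doxorubicin. The plot by gene list shows the regulators beside these lists.

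**Figure D4:**
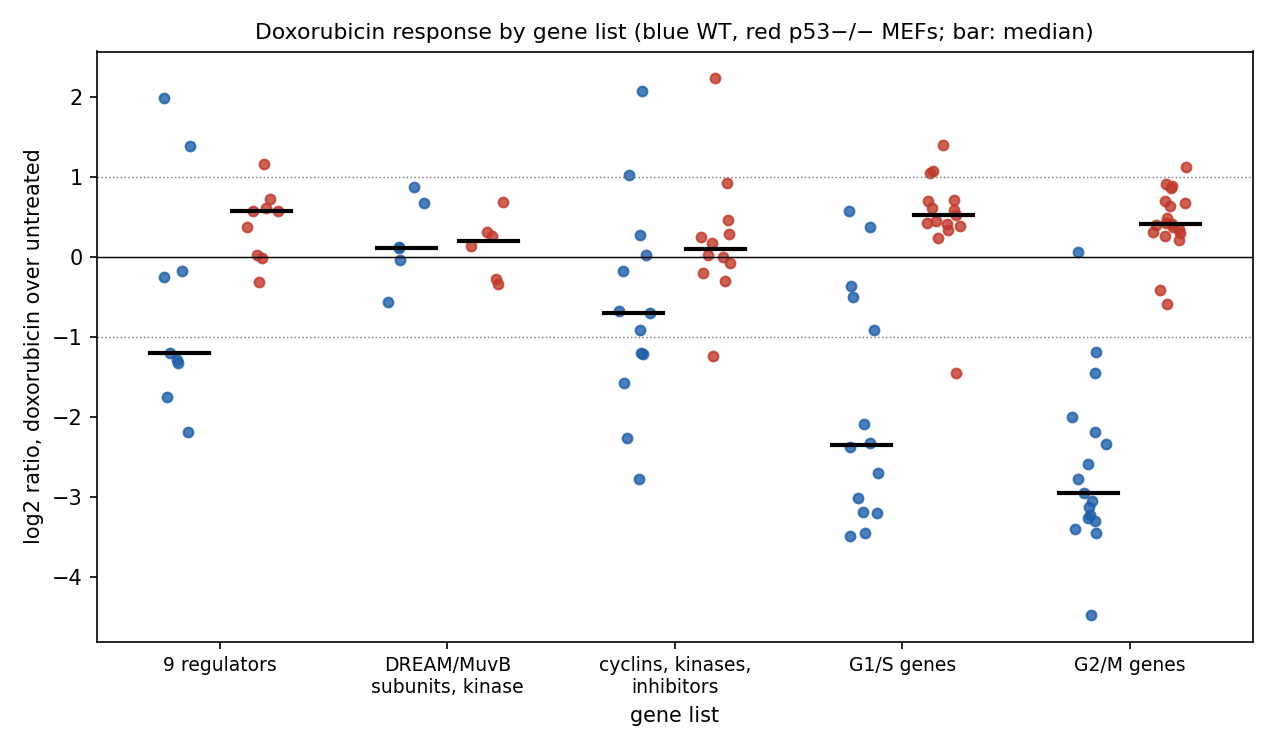
Log2 ratio of doxorubicin-treated over untreated MEFs for each measured gene of 5 lists (points), in WT (blue) and p53-/- MEFs (red), with the median of each as a bar and 2-fold as dotted lines. The medians in WT MEFs are −1.20 for the 9 regulators, 0.12 for the other DREAM and MuvB genes, −0.70 for the cyclins, kinases and inhibitors, −2.35 for G1/S and −2.94 for G2/M genes, and those in p53-/- MEFs lie between 0.10 and 0.57.

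The genes nearest in pattern were found by the distance between the 4 levels of 2 genes, each centered on its own mean, among 16538 genes. With 4 arrays this describes a shape and no more. Nearest to Foxm1 were Hmgb2 (distance 0.04), a chromatin protein of dividing cells, a probe without a gene name in the files (0.04) and Cenpa (0.06), the centromeric histone. Nearest to Mybl2 were Chaf1a (0.15), a chromatin assembly factor of S phase, Polq (0.16), a DNA polymerase of end joining, and Haus5 (0.24), a spindle protein. The distance between Foxm1 and Mybl2 was 0.33. Nearest to Rbl1 were Gm9296 (0.08), Kpna2 (0.09), an importin, and Mnd1 (0.10), a recombination factor. Rbl2 had Gzmm (0.08), Itpkc (0.08), a kinase of inositol trisphosphate, and Rgs5 (0.10), a regulator of G protein signaling, nearest to it. Rb1 was 1.15 from Rbl2 and 3.51 from Rbl1.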

How the data were processed

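RNA of 4 conditions was measured on 1 array each, from 200 ng of total RNA labeled with Cy3. The authors extracted spot intensities with Agilent Feature Extraction 10.7.3.1, which subtracts background and removes spatial trends within an array, and the deposited intensities are linear and not normalized between arrays. The deposited table of the series held the same intensities (177588 of 177588 values). Deposited flags mark spots well above background, saturated (0) or outlying.

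Outlier spots (145 to 168 of 43020) were left out. Log2 signals were averaged over the spots of each probe, and the 75th percentile of 39429 probes (1819 to 2421) was subtracted. Each gene name was represented by its brightest probe on average, and counts use 2-fold. Between 56.9% and 62.9% of probes were well above background, and the number of arrays limits the precision. No test was possible. Probe coordinates (mm9) come from the files, and exon or UTR was not analysed here. Promoters came from RefSeq (GRCm38.p6).

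The genes and lists were chosen with earlier results of these data known. Named genes were the 9 regulators, Trp53, the other DREAM and MuvB genes, the 2 highest and 2 lowest differences of each other list, and the 3 nearest genes of Mybl2, Foxm1, Rbl1 and Rbl2, of which 1 is not reported here. Alternatives were the array median, quantile normalization, normexp (limma 3.58.1, R 4.3.3, offset 50, on the deposited mean and background intensities), 3 filters on dim probes, the mean of probes, the series table, and 1.5-fold and 3-fold. Protein sequences were not analysed here. The steps were checked on simulated arrays (Python 3.11.15, numpy 2.4.6, pandas 2.3.3, matplotlib 3.10.9). These arrays shared the same background flags, so the filter on dim probes was not checked.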

Additional observations from a re-analysis of the deposited data

Results flagged for a closer look

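With doxorubicin, 5 of the 9 genes moved in opposite directions in the 2 genotypes, lower in WT and higher in p53-/- MEFs, each by more than the SD of a ratio between repeat spots (0.115). The difference of log2 ratios was −1.41 for Tfdp2, −2.01 for Lin9, −1.89 for Lin54, −2.32 for Mybl2 and −2.80 for Foxm1. The difference was not tested, since each condition had 1 array. Of 16538 genes, 10.9% were lower in WT and higher in p53-/- MEFs by this measure. The second probe of Tfdp2 gave −0.16 in p53-/- MEFs, so that its opposite direction was not seen on that probe. The second probes of Lin9 and Mybl2 had the signs of the first, with differences of −0.56 and −3.16. For Lin9 the ratio in p53-/- MEFs was 0.118 on that probe, hardly past the SD. The second Foxm1 probe was not well above background in treated WT MEFs.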

How the results depend on the processing

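Each of the 9 genes was measured in every comparison, and no value past 2-fold changed sign under another scaling, background correction, filter on dim probes or source of values, or with the mean of probes. Under these settings 1 smaller value did: array-median scaling turned Rbl1 in p53-/- MEFs to −0.27. Read from its second probe alone, Tfdp2 in p53-/- MEFs turned from 1.16 to −0.16, and Rbl1 from 0.03 to −0.01. Scaling to the array median lowered the median ratio of all genes with doxorubicin to −0.27 in WT and −0.30 in p53-/- MEFs. It moved the median of the 9 to −1.47 and 0.28 and the count that rose in p53-/- MEFs from 1 to 0. Under normexp the median between treated genotypes was 1.58. The mean of all probes left 7 genes measured in treated WT MEFs, because the second probes of Rbl1 and Foxm1 were dim. With it, 2 fell in WT and 0 rose in p53-/- MEFs. Between genotypes, 3 were higher in untreated and 3 in treated p53-/- MEFs. The medians were −0.36 in WT, 0.42 in p53-/- and 0.92 between treated MEFs. At 3-fold, 1 rose and 2 fell in WT and 0 rose in p53-/- MEFs, 0 were higher in untreated and 1 lower in treated p53-/- than WT MEFs. At 1.5-fold, 3 rose in p53-/- MEFs, and 4 were higher and 1 lower in untreated p53-/- than in WT MEFs. No paired analysis was possible because each condition had 1 array, and for the same reason no replicate was left out. Signals near the brightest negative control (250.1 in untreated p53-/- MEFs) limit the second probes of Rbl1 and Foxm1.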
